A study of Mus musculus with 10 samples.

Results

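The genes described here are 32 genes of the endoplasmic reticulum (ER) stress response, made up of ER chaperones and folding enzymes, the sensors and transcription factors that control them, and genes driven by the transcription factor ATF4. They were picked by symbol from GENCODE M21 names, 32 of the 54446 gene rows in the count table, and all 32 passed the low-count filter that left 15181 genes for testing. They were measured by messenger RNA sequencing in primary smooth muscle cells from mouse aorta, in 5 libraries of wild type mice (WT 1 to 5) and 5 of compound Kit W/Wv mutants (WWv 1 to 5). Kit encodes the receptor of stem cell factor, the alleles are in the germline and so in every cell of the animal, and the labels name no treatment. Per the labels' protocols, cells came from 5 mice of each genotype by collagenase digestion and were grown to passage 2. The labels do not tie each library to its own mouse, so the p-values measure the spread between these libraries. The sources used here give no age, sex or strain background.

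Proteins that enter the secretory pathway are folded in the ER by chaperones such as BiP (Hspa5) and GRP94 (Hsp90b1). When unfolded protein builds up, BiP leaves the sensors IRE1 (Ern1), PERK (Eif2ak3) and ATF6. IRE1 splices the Xbp1 message, ATF6 is cut to release a transcription factor, and both raise chaperone and ER-associated degradation genes. PERK, like the sensors of amino acid shortage, phosphorylates the translation factor eIF2, which favours translation of ATF4 and so raises genes of amino acid transport, serine and folate metabolism and, through CHOP (Ddit3), of stress-induced death. Splicing of Xbp1, cleavage of ATF6 and translation of ATF4 are not read by gene counts. Smooth muscle cells in culture secrete much extracellular matrix and so carry a large load of protein through the ER.

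Libraries held 42040255 to 53863661 counts and did not separate the groups by depth. Kit stood at 3.19, 4.92, 4.07, 4.40 and 4.02 CPM in WT 1 to 5 and at 2.09, 0.929, 1.71, 3.01 and 2.25 CPM in WWv 1 to 5, every WWv library below every WT library (log2 fold change −1.04 ± 0.25 SE, adjusted p = 0.0122). The smooth muscle markers rose in 7 of 9 members, with a summed level of 12939.8 to 16602 CPM (counts scaled to the library total times its trimmed-mean factor) in WT and 20470.1 to 24070.2 in WWv, and so are present as labelled. Fibroblast markers fell in 4 of 8 (summed 556 to 1215 CPM in WT and 562 to 841 in WWv). With all 10 libraries, 12.8% of all tested genes were called higher and 15.4% lower. Endothelial markers did not pass in any of 7 tested (summed 56.9 to 329 and 91.2 to 210.2 CPM), nor did macrophage markers in any of 5 tested (summed 20.6 to 41.3 and 20.7 to 25.7 CPM). The 4 mast cell markers summed to at most 0.533 CPM in any library, and Fcer1a was at 0 in all. WT 2 stood apart from the other WT libraries: it lay at 20.15 on the first principal component (52.55% of the variance), inside the WWv range of 11.5 to 33.4, while the others lay between −51.1 and −29.1. It also held the highest endothelial sum, with 98.2 CPM the most in another WT library, and without WT 2 the endothelial markers Pecam1 (0.98), Cdh5 (1.11), Tie1 (0.95) and Emcn (1.23) were called higher and the macrophage markers Csf1r (−0.72) and Lyz2 (−0.63) lower (log2 fold changes). The other endothelial markers tested, Tek (−0.20), Kdr (−0.30) and Vwf (−0.15), were then below 0 and not called. Of the other macrophage markers tested, also uncalled, Ptprc was at 0.37, Cd68 at −0.31 and Cd14 at −0.60. Among fibroblast markers 1, Cd34 (1.76), was called higher without WT 2 and 5 lower, in a fit that called 46.2% of all tested genes. The part of these markers in the results below was not tested. In these bulk samples fewer cells of a type and less RNA per cell cannot be told apart.

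The promoters of many ER stress genes hold short elements to which the factors downstream of the sensors bind. Windows of 250 bases before to 50 after the transcript start, from RefSeq on GRCm38.p6, were found for 28 of the 32 genes (not for Atf6, Manf, Aldh1l2 and Slc7a5). The ER stress element (ERSE), bound by ATF6 and XBP1 together with the factor NF-Y, was searched on both strands as the letters CCAAT and, after a gap of 9 bases of any kind, CCACG. It stood in the windows of 7 genes, Calr, Canx, Creld2, Dnajc3, Hsp90b1 (in 2 places), Hspa5 and Pdia6, against 39 of all 32851 windows (0.119%). The sites are shown because they are a sequence feature that these 7 of the 13 chaperone and folding genes share, each on the strand on which it reads CCAAT first, with 5 flanking bases on either side and the fixed letters in capitals.
Calr (chr8:84847070-84847098, plus strand): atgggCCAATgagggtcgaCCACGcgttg
Canx (chr11:50325795-50325823, minus strand): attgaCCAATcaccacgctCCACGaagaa
Creld2 (chr15:88819515-88819543, minus strand): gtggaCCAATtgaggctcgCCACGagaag
Dnajc3 (chr14:118937822-118937850, plus strand): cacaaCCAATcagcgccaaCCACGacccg
Hsp90b1 (chr10:86705633-86705661, minus strand): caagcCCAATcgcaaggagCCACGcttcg
Hsp90b1 (chr10:86705528-86705556, plus strand): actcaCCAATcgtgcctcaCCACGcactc
Hspa5 (chr2:34772020-34772048, plus strand): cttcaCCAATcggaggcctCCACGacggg
Pdia6 (chr12:17266486-17266514, plus strand): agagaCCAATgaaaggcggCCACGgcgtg

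The 9 bases between the fixed letters differed at each site, while the fixed ends stood 47 to 212 bases before the start, in either orientation to the gene. The shorter ERSE-II (ATTGG and, after a gap of 1 base, CCACG) stood in 12 windows (0.0365%), among them those of Herpud1 and Dnajb11. The joint C/EBP and ATF site, here the letters TTGCATCA, stood in 294 windows (0.895%), among them those of Atf3, Chac1 and Herpud1. The letters of a cyclic AMP element (TGACGTCA, 588 windows, 1.79%) and of a UPR element core (TGACGTGG, 222 windows, 0.676%) were in 0 of the member windows. No search allowed a mismatch. The motifs overlap in part: ATTGG is CCAAT on the other strand, CCACG is in both ERSE forms and, on the other strand, in the UPR element core, and that core shares TGACGT with the cyclic AMP element. The sites of the ERSE-II and of the joint site are shown in the same way.
Dnajb11 (chr16:22857847-22857867, plus strand): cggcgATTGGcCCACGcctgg
Herpud1 (chr8:94386372-94386392, plus strand): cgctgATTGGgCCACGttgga
Atf3 (chr1:191183431-191183448, minus strand): cgcacTTGCATCAccaag
Chac1 (chr2:119351044-119351061, plus strand): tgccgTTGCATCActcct
Herpud1 (chr8:94386312-94386329, plus strand): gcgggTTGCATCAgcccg

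Herpud1 was the 1 member with both of these elements. Its 250 bases before the start (chr8:94386179-94386428, plus strand) are given in full with both elements in capitals, followed by those of Hspa5 (chr2:34771840-34772089, plus strand), in which a single ERSE matched letter for letter.
Herpud1: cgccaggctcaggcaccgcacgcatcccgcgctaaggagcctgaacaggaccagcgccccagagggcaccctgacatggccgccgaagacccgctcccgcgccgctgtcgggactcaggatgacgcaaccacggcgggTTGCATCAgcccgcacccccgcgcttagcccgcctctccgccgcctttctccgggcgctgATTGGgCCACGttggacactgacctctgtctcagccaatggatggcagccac
Hspa5: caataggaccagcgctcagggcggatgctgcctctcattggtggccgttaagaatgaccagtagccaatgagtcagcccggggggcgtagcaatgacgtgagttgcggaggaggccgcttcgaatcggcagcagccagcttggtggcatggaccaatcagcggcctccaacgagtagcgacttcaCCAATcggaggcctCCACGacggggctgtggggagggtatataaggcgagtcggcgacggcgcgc

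**Figure D1:**
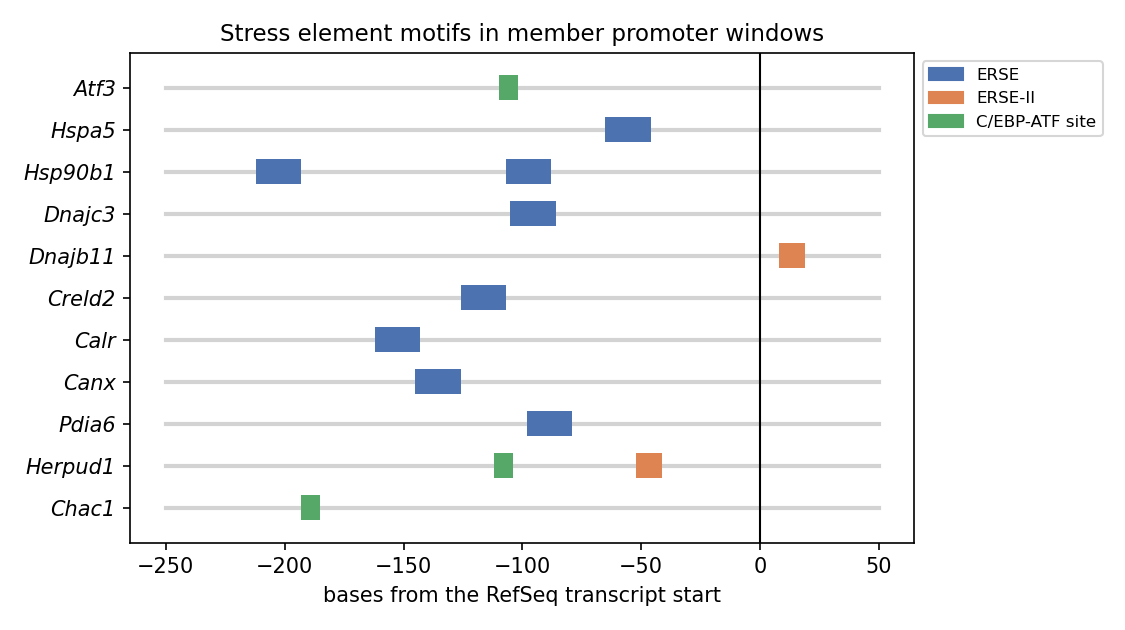
Position of exact motif matches in the promoter windows of the 11 member genes that held any, in bases from the RefSeq transcript start (horizontal axis, from 250 before to 50 after), 1 grey line per gene. Bars mark the ERSE, the ERSE-II and the joint C/EBP and ATF site; all but the ERSE-II of Dnajb11 lie before the start.

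Most of the ER stress set did not pass the test between the genotypes. In WWv cells 4 of the 32 genes rose, namely Atf6, Mthfd2, Slc7a5 and Canx, 1 fell, namely Xbp1, and 27 did not pass, where a gene was called at an edgeR adjusted p under 0.05 over all tested genes. That made 15.6% of the members called, against 28.2% of all 15181 tested genes (12.8% higher and 15.4% lower). The median log2 fold change of the members was 0.01, that of all tested genes −0.01, and the median absolute change was 0.12 against 0.19. At an unadjusted p under 0.05 there were 11 members. The share of all tested genes at that cut was not counted, but it is at least the 28.2% called. In 2 of the 32 members, Atf6 and Canx, the WT and WWv values did not overlap, against 15.9% of all tested genes.

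A missing call does not show that a gene stayed level, so the 95% intervals of the changes matter here. For 27 of the 32 genes (84.4%), 23 of them uncalled, the whole interval lay inside a 1.5-fold change in either direction. The share of all tested genes was 61.1%. The 5 whose intervals reached further were Atf6, Atf3, Phgdh, Aldh1l2 and Trib3. Standard errors of the members ran from 0.04 to 0.22 on the log2 scale.

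**Figure D2:**
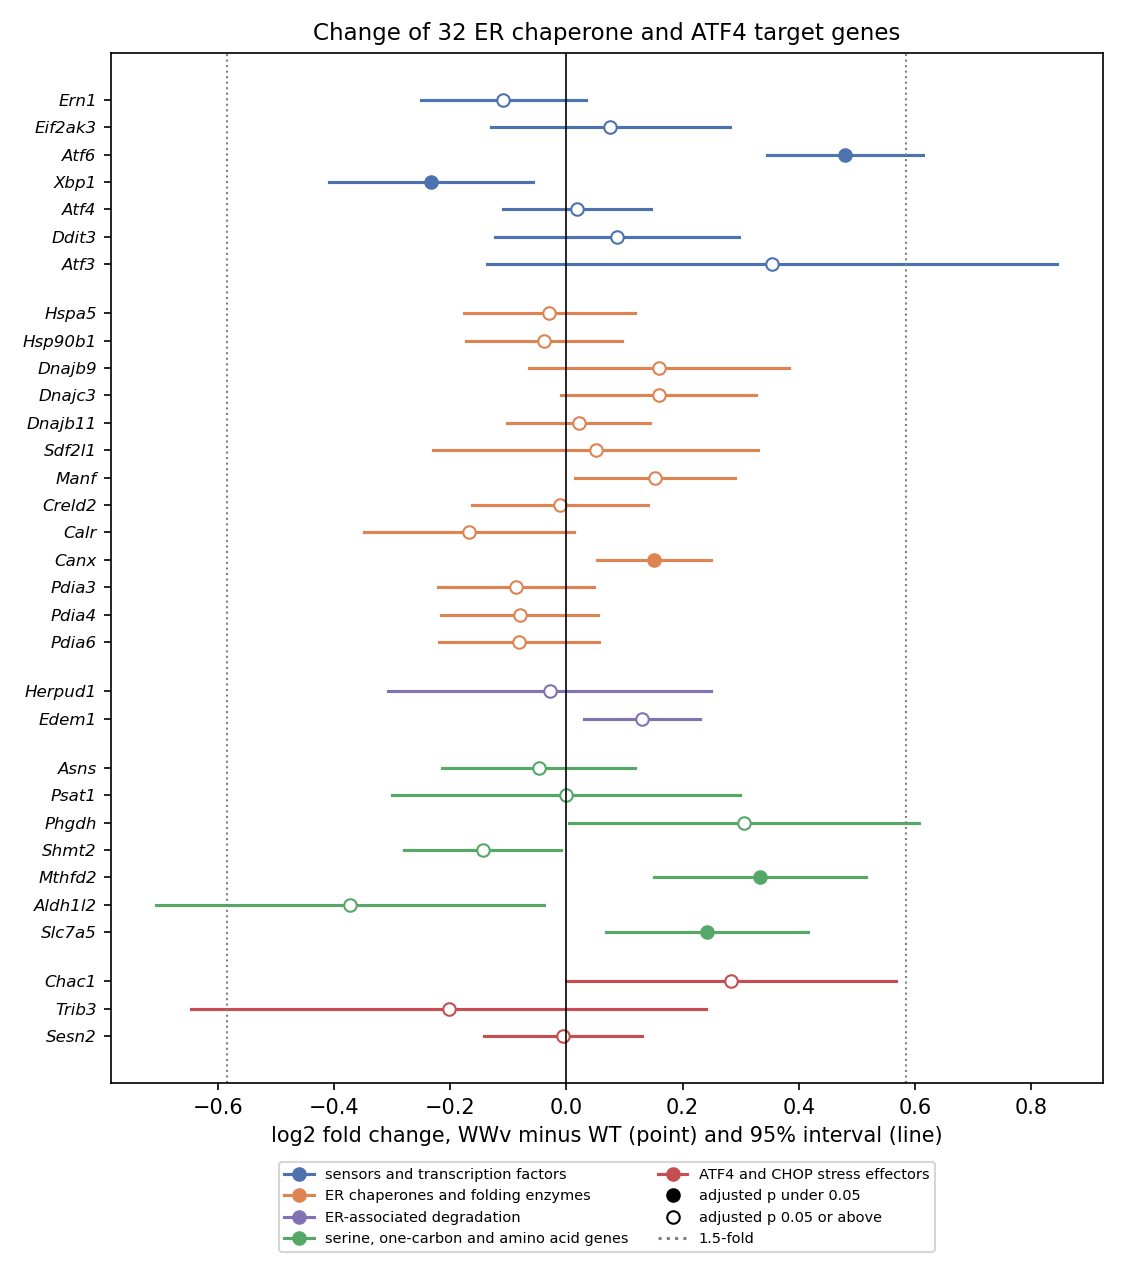
Log2 fold change of each of the 32 genes in WWv against WT (points, horizontal axis) with its 95% interval (lines), grouped by role, with filled points for an adjusted p under 0.05 and dotted lines at a 1.5-fold change. Atf6 lies farthest from 0 among the called genes, and most intervals of the chaperones span 0.

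Among the sensors and transcription factors Atf6 rose and Xbp1 fell, while the other 5 did not pass (28.6% called, against 28.2% of all tested genes). Atf6, which encodes the membrane-bound factor that is cut under ER stress (ENSMUSG00000026663, chromosome 1, 170704674 to 170867771, mm10), stood at 88.8, 97.4, 89.5, 82.8 and 87.2 CPM in WT 1 to 5 and at 111, 128, 135, 119 and 128 CPM in WWv 1 to 5. The lowest WWv library lay above the highest WT library, which was WT 2. The change was a 1.39-fold rise (log2 fold change 0.48 ± 0.06 SE, 95% interval 0.34 to 0.61, adjusted p = 0.000676), and the call held under all 18 alternatives tried, with log2 fold changes of 0.36 to 0.52.

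Xbp1, whose spliced message makes the factor that raises chaperone and degradation genes (chromosome 11, 5520659 to 5525893), stood at 112, 84.3, 109, 109.6 and 118 CPM in WT 1 to 5 and at 86.4, 92.4, 89.7, 90.2 and 95.03 CPM in WWv 1 to 5. WT 2 lay below every WWv library and the other 4 WT libraries above all of them. Xbp1 fell by 0.23 on the log2 scale (SE 0.08, adjusted p = 0.0494), close to the threshold, and by 0.30 without WT 2 (adjusted p = 0.000223). The call was lost without any single library other than WT 2 and WWv 5 (−0.24 to −0.19), without the low-count filter, in limma-voom (−0.23, adjusted p = 0.0625) and, with a change of −0.01, after adjusting for the cell cycle score described further on.

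Ern1, the IRE1 sensor that splices Xbp1, stood at 46.3, 41.4, 49.03, 47.3 and 46.2 CPM in WT 1 to 5 and at 41.2, 43.3, 40.9, 39.7 and 48.5 CPM in WWv 1 to 5, with the groups overlapping (−0.11 ± 0.06, adjusted p = 0.229). Eif2ak3, the PERK kinase, stood at 35.1, 24.1, 30.2, 34.1 and 32.8 CPM in WT 1 to 5 and at 30.4, 32.95, 32.3, 33.2 and 35.9 CPM in WWv 1 to 5, and WT 2 was the lowest of the 10 (0.08 ± 0.09, adjusted p = 0.571). Neither sensor gene passed, and an exon of the predicted gene Gm43292 overlaps Eif2ak3 in antisense, which makes its count uncertain.

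Atf4, the factor at the centre of the amino acid branch, stood at 211, 217, 199.98, 205 and 225 CPM in WT 1 to 5 and at 237, 211, 222, 204 and 198 CPM in WWv 1 to 5. The groups overlapped throughout (log2 fold change 0.02 ± 0.06, 95% interval −0.11 to 0.15, adjusted p = 0.836). Ddit3, the death-linked factor CHOP, stood at 20.2, 18.2, 22.5, 20.6 and 26.99 CPM in WT 1 to 5 and at 23.9, 22.6, 22.1, 24.9 and 21.6 CPM in WWv 1 to 5 (0.09 ± 0.10, adjusted p = 0.517), and it overlaps Mars on the opposite strand. Atf3, a stress-induced repressor of the same family, was the scarcest member at 2.98, 2.61, 2.96, 2.36 and 1.62 CPM in WT 1 to 5 and at 4.90, 2.25, 3.08, 3.04 and 2.79 CPM in WWv 1 to 5. WWv 1 was the highest and WT 5 the lowest library for Atf3, and its interval was the widest of the set (−0.14 to 0.85, adjusted p = 0.254).

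The 13 chaperones and folding enzymes took the most counts, and of them 1 rose, 0 fell and 12 did not pass. That made 7.69% called, against 28.2% of all tested genes. Summed, they stood at 7197, 5816, 6613, 6346 and 6666 CPM in WT 1 to 5 and at 6246, 6539, 6049.9, 6523 and 6219 CPM in WWv 1 to 5. WT 1 held the highest sum and WT 2 the lowest, and all 5 WWv libraries lay between them.

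Hspa5, the BiP chaperone that also holds the sensors inactive (chromosome 2, 34771970 to 34777547), stood at 1009, 789, 917, 833 and 894 CPM in WT 1 to 5 and at 856, 899.9, 862, 889 and 846 CPM in WWv 1 to 5. The WT libraries spread on both sides of the WWv libraries, and the change was −0.03 ± 0.07 (95% interval −0.18 to 0.12, adjusted p = 0.771). Hsp90b1, the GRP94 chaperone, stood at 1251, 1040.2, 1150.0, 1078 and 1133 CPM in WT 1 to 5 and at 1114, 1148, 1036, 1137 and 1066 CPM in WWv 1 to 5, again with overlapping groups (−0.04 ± 0.06, adjusted p = 0.661).

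Canx and Calr encode the membrane-bound and the soluble lectin chaperone that fold glycoproteins. Canx stood at 689, 663, 669, 623 and 653 CPM in WT 1 to 5 and at 727, 745, 716, 745 and 728 CPM in WWv 1 to 5, every WWv library above every WT library. It rose by 1.11-fold (log2 fold change 0.15 ± 0.04, 95% interval 0.05 to 0.25, adjusted p = 0.0281). The call was lost without any single library other than WT 1, WT 2 and WWv 1 (0.13 to 0.16). It was also lost without the low-count filter, after adjusting for the cell cycle score (0.13, adjusted p = 0.195), and under scaling by library size alone (0.07, adjusted p = 0.322) rather than the trimmed-mean scaling (TMM) used for the values here. Calr stood at 1925, 1428, 1765, 1758 and 1883 CPM in WT 1 to 5 and at 1564, 1604, 1443, 1658 and 1532 CPM in WWv 1 to 5, with 4 WT libraries above the highest WWv library and WT 2 below all WWv libraries. Its change did not pass with WT 2 in (−0.17 ± 0.08, adjusted p = 0.149) and did without it (−0.23, adjusted p = 0.00703).

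Calr had the lowest estimate of the 13, and whether the lectin pair differed from each other was not tested. Pdia3, the disulfide isomerase that works with both lectins, stood between 882 and 1058 CPM in WT and 842 and 949 in WWv (−0.09 ± 0.06, adjusted p = 0.308). The isomerases Pdia4 (−0.08 ± 0.06, adjusted p = 0.344) and Pdia6 (−0.08 ± 0.06, adjusted p = 0.350) had estimates of nearly the same size.

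The J-domain cofactors of BiP did not pass either. Dnajb9, which recruits BiP to IRE1, stood at 32.1, 21.4, 26.96, 29.8 and 30.1 CPM in WT 1 to 5 and at 27.6, 31.7, 34.4, 30.8 and 32.3 CPM in WWv 1 to 5 (0.16 ± 0.10, adjusted p = 0.259). Dnajc3, the cofactor p58IPK that also restrains PERK, stood at 183, 135, 162, 169 and 172 CPM in WT 1 to 5 and at 168, 185, 189, 179 and 196 CPM in WWv 1 to 5 (0.16 ± 0.08, adjusted p = 0.143). In both WT 2 was the lowest of the 10 libraries, and the other WT libraries overlapped WWv. Dnajb11, the cofactor ERdj3, had an estimate of 0.02 (95% interval −0.10 to 0.14).

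The remaining small folding factors were also uncalled. Manf, a secreted ER stress protein that binds BiP, stood at 179, 139.8, 167, 160.1 and 173 CPM in WT 1 to 5 and at 183, 187, 183, 182 and 176 CPM in WWv 1 to 5. Only WT 1 reached into the WWv range for Manf, and the estimate was 0.15 ± 0.06 (adjusted p = 0.0893). Sdf2l1, a partner of the J-domain cofactors, stood at 21.9, 12.7, 18.8, 19.4 and 21.8 CPM in WT 1 to 5 and at 19.5, 21.3, 18.04, 19.7 and 19.3 CPM in WWv 1 to 5 (0.05 ± 0.13, adjusted p = 0.795), with WT 2 at the bottom. Creld2, an ER stress-induced disulfide isomerase-like protein, had an estimate of −0.01 (95% interval −0.16 to 0.14). Hsp90b1, Dnajb9, Manf, Pdia3, Pdia4 and Pdia6 share exon bases with other genes, and their counts are uncertain to that extent.

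Neither of the ER-associated degradation genes passed in the edgeR fit with all 10 libraries and group as the only term. Herpud1, which organises the degradation complex in the membrane and carries both elements printed above, stood at 64.4, 39.6, 59.7, 65.2 and 71.8 CPM in WT 1 to 5 and at 57.97, 59.3, 58.6, 58.6 and 60.3 CPM in WWv 1 to 5. The 5 WWv libraries lay within 57.97 to 60.3 CPM, WT 2 far below them, WT 3 among them and the other WT libraries above them. With WT 2 in, the estimate was −0.03 ± 0.13 (adjusted p = 0.883), and without it Herpud1 passed downward (−0.14, adjusted p = 0.0367). With all libraries and an edgeR adjustment for the cell cycle score, Herpud1 passed upward (0.40, adjusted p = 0.0141). Edem1, which hands misfolded glycoproteins to degradation, stood at 116, 104, 112, 110.4 and 117 CPM in WT 1 to 5 and at 116, 123, 124, 121 and 129 CPM in WWv 1 to 5 (0.13 ± 0.05, adjusted p = 0.0545). It overlapped between the groups through WT 1 and WT 5, and it passed without WWv 1 (0.15), with RLE factors (0.13, adjusted p = 0.0472) and in DESeq2 (0.13, adjusted p = 0.0162).

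**Figure D3:**
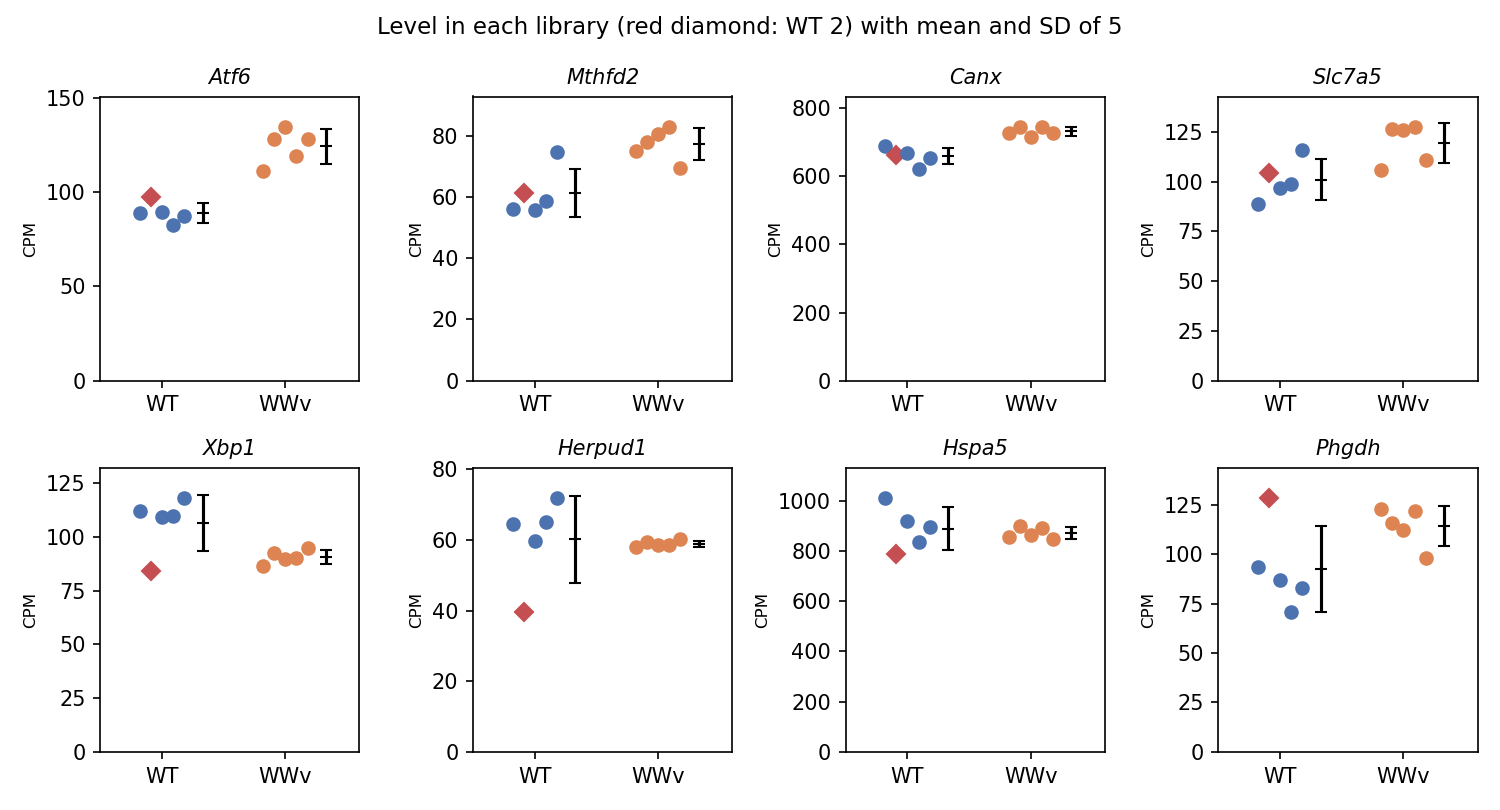
Level in each library, in CPM (vertical axis from 0), of the 5 called members and of Herpud1, Hspa5 and Phgdh in WT and WWv, with the mean and SD of 5 libraries beside the points and WT 2 as a red diamond. WWv lies above WT for Atf6 and Canx, and WT 2 lies apart from the other WT libraries for Xbp1, Herpud1 and Phgdh.

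Of the 7 amino acid and folate genes under ATF4, 2 rose, 0 fell and 5 did not pass, a share of 28.6% called that is close to the 28.2% of all tested genes. Mthfd2, the mitochondrial folate enzyme that is low in most resting adult tissue (chromosome 6, 83305691 to 83325908), stood at 56.2, 61.2, 55.9, 58.6 and 74.7 CPM in WT 1 to 5 and at 75.2, 78.02, 80.5, 82.9 and 69.5 CPM in WWv 1 to 5. WT 5 was the only WT library inside the WWv range. The rise was 1.26-fold (log2 fold change 0.33 ± 0.08, 95% interval 0.15 to 0.52, adjusted p = 0.0137), held with each library left out (0.30 to 0.41) and was lost after adjusting for the cell cycle score (0.38, adjusted p = 0.0678).

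Slc7a5, the LAT1 carrier of large neutral amino acids (chromosome 8, 121881150 to 121907694), stood at 88.6, 104, 97.1, 98.9 and 116 CPM in WT 1 to 5 and at 106, 126, 126, 128 and 111 CPM in WWv 1 to 5. The groups overlapped through WT 5, WWv 1 and WWv 5, and the rise was 1.18-fold (0.24 ± 0.08, adjusted p = 0.0423). The call was lost without any single library other than WT 2, WT 5 and WWv 1 (0.20 to 0.26), under scaling by library size alone (0.16, adjusted p = 0.156), with no or a stricter low-count filter, and after adjusting for the cell cycle score (0.22, adjusted p = 0.249).

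Phgdh and Psat1 encode the opening enzymes of serine synthesis. Phgdh stood at 93.3, 128, 86.8, 70.5 and 82.8 CPM in WT 1 to 5 and at 123, 116, 112, 122 and 97.95 CPM in WWv 1 to 5, with WT 2 the highest of the 10 and every WWv library above the other 4 WT libraries. Its estimate of 0.31 ± 0.14 did not pass with WT 2 in (adjusted p = 0.117) and did without it (0.46, adjusted p = 0.00167). Psat1 stood at 102, 145, 105, 81.3 and 95.7 CPM in WT 1 to 5 and at 108, 109, 109, 115 and 87.3 CPM in WWv 1 to 5, WT 2 again the highest and WWv 5 the lowest of its group (0.00 ± 0.14, adjusted p = 0.997).

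Shmt2, which passes the carbon of serine to mitochondrial folate, stood at 97.3, 113, 102, 92.4 and 112 CPM in WT 1 to 5 and at 93.5, 94.999, 93.4, 97.8 and 88.5 CPM in WWv 1 to 5 (−0.14 ± 0.06, adjusted p = 0.100), lower in 5 of 5 WWv libraries than the WT mean. It passed without WT 4 (−0.18). Aldh1l2, a mitochondrial enzyme that burns folate-bound carbon to make NADPH, stood at 48.5, 39.3, 48.9, 63.5 and 74.5 CPM in WT 1 to 5 and at 36.8, 46.7, 41.6, 45.7 and 41.4 CPM in WWv 1 to 5. WT 4 and WT 5 were its highest libraries, and WT 2 lay inside the WWv range. The estimate was −0.37 ± 0.15 (adjusted p = 0.0877), and without WT 2 it passed downward (−0.47, adjusted p = 0.0104). Asns, the asparagine synthetase that is a standard readout of ATF4 activity, stood at 106, 99.4, 103, 107 and 129 CPM in WT 1 to 5 and at 95.96, 109, 112, 111 and 99.005 CPM in WWv 1 to 5 (−0.05 ± 0.08, 95% interval −0.21 to 0.12, adjusted p = 0.666). Shmt2 shares 32 exon bases with Ndufa4l2 and Aldh1l2 shares 1056 with D10Wsu102e, both on the opposite strand.

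None of the 3 stress effectors under ATF4 and CHOP was called by edgeR with group as the only term, nor by DESeq2 or limma-voom. In that edgeR fit 1, Chac1, had an unadjusted p under 0.05, a cut that at least 28.2% of all tested genes passed. After adjusting for the cell cycle score in edgeR, Chac1 was called higher (0.62, adjusted p = 0.0224). Chac1, which degrades glutathione, stood at 11.7, 7.87, 10.5, 12.5 and 13.3 CPM in WT 1 to 5 and at 12.4, 15.8, 12.8, 13.4 and 13.7 CPM in WWv 1 to 5 (0.28 ± 0.13, adjusted p = 0.122). Trib3, a pseudokinase that feeds back on ATF4 and CHOP, stood at 13.8, 9.36, 14.1, 19.8 and 23.4 CPM in WT 1 to 5 and at 12.3, 14.9, 13.9, 14.8 and 13.996 CPM in WWv 1 to 5, so that WT alone spanned from the lowest to the highest of the 10 libraries (−0.20 ± 0.20, adjusted p = 0.472). Sesn2, a leucine-binding restraint on mTORC1, stood at 59.2, 51.96, 62.3, 62.4 and 64.2 CPM in WT 1 to 5 and at 65.04, 57.8, 59.95, 57.9 and 58.1 CPM in WWv 1 to 5 (−0.01 ± 0.06, 95% interval −0.14 to 0.13, adjusted p = 0.953).

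Across libraries the clearest feature of the set was the place of WT 2. It was the lowest of the 10 libraries for 15 of the 32 genes and the highest for 3, against 17.5% and 17.1% of all tested genes. The 15 were Eif2ak3, Xbp1, Ddit3, Hspa5, Dnajb9, Dnajc3, Dnajb11, Sdf2l1, Manf, Calr, Herpud1, Edem1, Chac1, Trib3 and Sesn2, and the 3 were Psat1, Phgdh and Shmt2. Both degradation genes and all 3 effectors were thus at their lowest in WT 2, while 3 of the 7 amino acid and folate genes were at their highest. WT 1 was the highest of the 10 for 9 members and the lowest for 1, against 9.52% and 8.47% of all tested genes.

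Leaving WT 2 out gave 5 higher members (Atf6, Canx, Phgdh, Mthfd2 and Slc7a5) and 4 lower ones (Xbp1, Calr, Herpud1 and Aldh1l2), against 46.2% of 15423 tested genes called. Cell cycle genes moved with the same library: their mean level, the cell cycle score, was 5.65 log2 CPM in WT 2, against 4.95 to 5.12 among the remaining 4 WT libraries and 5.41 to 5.61 in WWv. Apart from WT 2 the score thus separated the genotypes. With all 10 libraries and group as the only term, 17 of its 39 genes were themselves called higher in WWv and 1 lower. Of all tested genes 12.8% were called higher and 15.4% lower in that fit. Score and genotype overlap, so a call lost or gained on adjusting for the score cannot be assigned to the cell cycle. After adjusting for that score 7 members were called higher and 0 lower, with 9.7% of all tested genes called (1472 of 15181). The 7 were Atf6 (0.36), Chac1 (0.62), Sdf2l1 (0.43), Dnajb9 (0.41), Herpud1 (0.40), Dnajc3 (0.33) and Manf (0.30). WT 2 was the lowest library for 6 of these 7, all but Atf6.

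**Figure D4:**
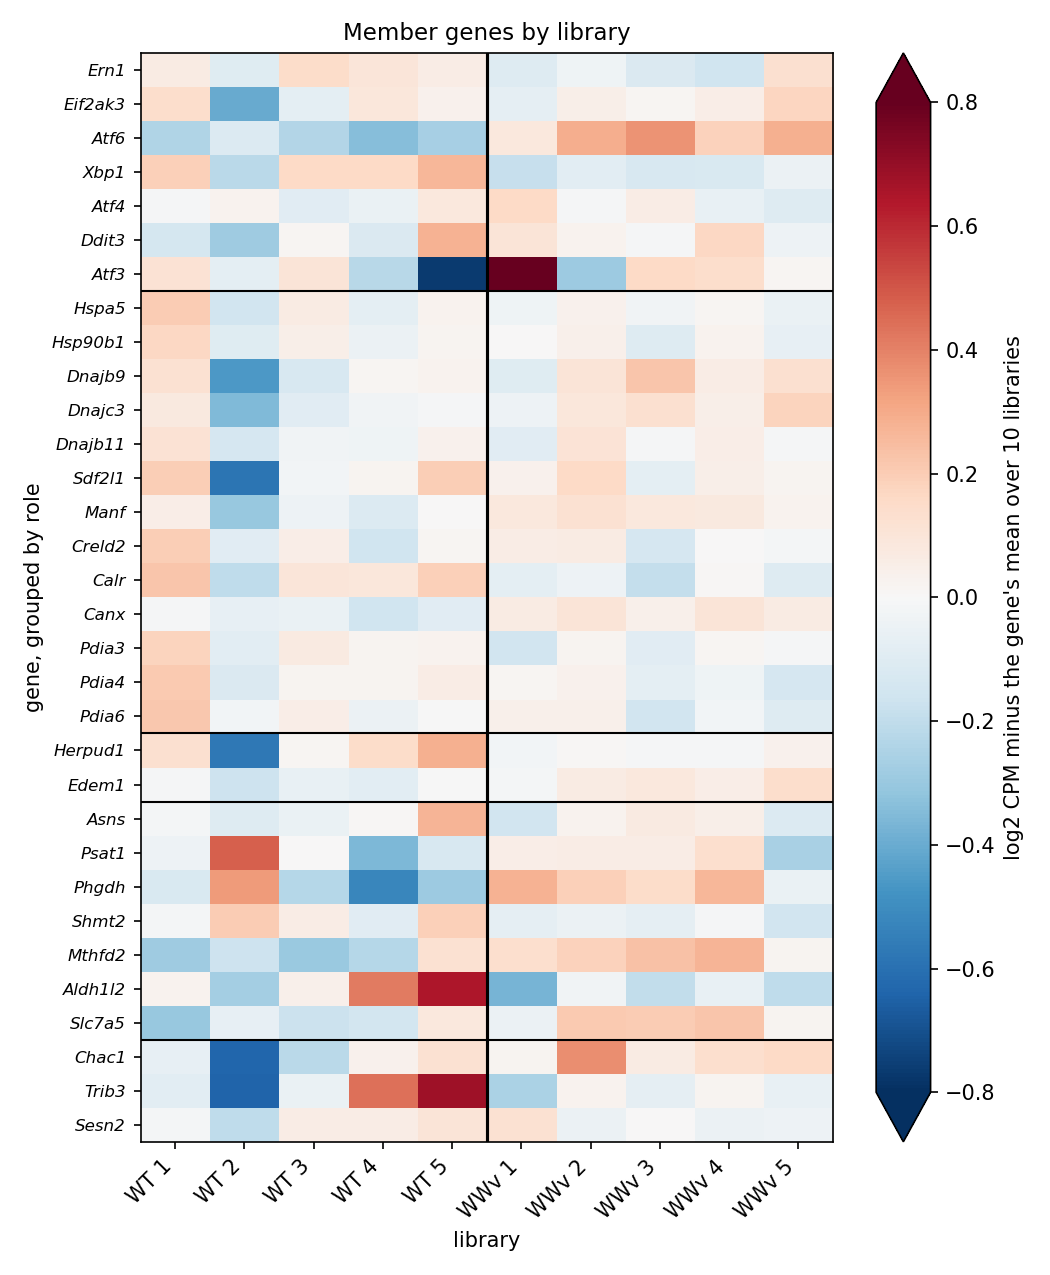
Log2 CPM of each of the 32 genes in each library minus the gene's mean over the 10 libraries (colour), with genes grouped by role and WT left of the line. The WT 2 column is low for the chaperone, degradation and effector genes that it places last of 10 and high for Psat1, Phgdh and Shmt2.

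Between genes, levels were compared as CPM per kilobase of merged exon. The 3 highest in WT were Calr (608 ± 67.7, SD, n = 5), Pdia3 (307 ± 20.4) and Hsp90b1 (280.3 ± 19.9), followed by Hspa5 (210.1 ± 19.9) and Canx (141 ± 5.19). The mean ± SD ranges of the neighbours Pdia3 and Hsp90b1 overlapped, as did those of Pdia4 (102 ± 8.23) and Pdia6 (90.1 ± 6.86) and of Pdia6 and Atf4 (89.7 ± 4.15). In WWv the leading 5 stood in the same order, at 542 ± 28.03, 289.6 ± 15.04, 273 ± 11.8, 206 ± 5.39 and 156 ± 2.73. The sensors were scarce by comparison, Ern1 at 5.63 ± 0.348, Eif2ak3 at 5.19 ± 0.727 and Atf6 at 9.65 ± 0.573 in WT, and Atf3 was the lowest at 1.16 ± 0.260. In WWv, Atf6 stood at 13.5 ± 0.988 CPM per kilobase, above the other sensors Ern1 (5.23 ± 0.424) and Eif2ak3 (5.47 ± 0.331).

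The genes with an ERSE in the promoter window did not share a direction. The 7 members that held one had log2 fold changes from −0.17 (Calr) to 0.16 (Dnajc3) with a median of −0.03, and 1, Canx, was called, where 28.2% of all tested genes were. The 21 members with a window and no ERSE had changes from −0.23 to 0.35 with a median of 0.02, and 2 were called, Xbp1 and Mthfd2. Of all genes with an ERSE in a window, 20 were tested, with 1 higher, 3 lower (4 of 20 called, against the same 28.2%) and a median of −0.16. The 3 lower were Pan2, Zfp57 and Ptgdr2, chosen for naming after their values were seen. The 3 members with the joint C/EBP and ATF site, Atf3, Chac1 and Herpud1, had estimates of 0.35, 0.28 and −0.03, none called.

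Wider lists of the same pathways put the members in context, each read against the 28.2% of all tested genes called. Of 36 other ER folding genes tested 9 rose and 0 fell (median log2 fold change 0.11). The largest rises were those of Pdia5, a disulfide isomerase (0.50 ± 0.08, adjusted p = 0.00169), and Dnajb14, a J-domain protein of the ER membrane (0.36 ± 0.04, adjusted p = 0.000343). Pdia5 stood at 37.9, 35.7, 37.1, 36.8 and 42.6 CPM in WT 1 to 5 and at 44.2, 55.8, 58.7, 56.5 and 53.3 CPM in WWv 1 to 5, with no overlap between the groups. Calu, the calcium-binding calumenin (0.22 ± 0.06), and Ppic, a prolyl isomerase (0.22 ± 0.06), rose by less. The call of Ppic was lost without WT 3 (0.21), WWv 4 (0.20) or WWv 5 (0.18).

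Of 27 other ER-associated degradation genes 5 rose and 2 fell (median 0.04). Among those that rose were Ube2g2, a ubiquitin-conjugating enzyme (0.32 ± 0.06, adjusted p = 0.00395), Edem3, a mannosidase related to Edem1 (0.24 ± 0.06, adjusted p = 0.0121), and, named after their values were seen, Nploc4 (0.17) and Ubxn4 (0.11). The 2 that fell were Os9, a lectin that delivers misfolded glycoproteins (−0.31 ± 0.07, adjusted p = 0.00951), and Edem2 (−0.18, likewise named afterwards). The call of Ubxn4 was lost without any single library other than WT 1 and WT 2 (0.10 to 0.12).

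Of 38 genes of ER entry and N-glycosylation 4 rose and 0 fell (median 0.04). These were Srprb, the membrane subunit of the signal recognition particle receptor (0.27 ± 0.05, adjusted p = 0.00243), Ssr1, a translocon-associated subunit (0.22 ± 0.05, adjusted p = 0.0102), Sec63, a translocon cofactor (0.16), and Srp9, a particle subunit (0.14). The call of Sec63 was lost without WT 4 (0.14), WT 5 (0.16), WWv 2 (0.16), WWv 3 (0.15) or WWv 4 (0.14), and that of Srp9 without any single library other than WT 1, WT 2 and WWv 1 (0.12 to 0.14).

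Among 28 other sensors and regulators of the integrated stress response 5 rose and 2 fell (median 0.07). Cebpb, a C/EBP factor that can pair with ATF4, stood at 116, 77.01, 104, 97.9 and 103 CPM in WT 1 to 5 and at 53.99, 49.6, 42.9, 38.1 and 44.8 CPM in WWv 1 to 5. Every WWv library was below every WT library (log2 fold change −1.12 ± 0.12, adjusted p = 0.000342), and the call held under all 18 alternatives. Creb3l3, a membrane-bound relative of ATF6 best known from liver, fell at a very low level, from a mean of 1.07 ± 0.556 CPM (SD, n = 5) to 0.383 ± 0.179 (log2 fold change −1.48 ± 0.46, adjusted p = 0.0338), and lost its call without any single library other than WT 2, WT 3, WWv 3 and WWv 4 (−1.44 to −1.29). Nupr1, a stress-induced chromatin protein, rose (0.60 ± 0.17, adjusted p = 0.0264), a call lost without WT 1 (0.59), WT 3 (0.57), WWv 2 (0.59), WWv 3 (0.53) or WWv 4 (0.58). The others that rose were Eif2b3 (0.39) and, named after their values were seen, Ppp1r15a, the phosphatase subunit GADD34 that reverses eIF2 phosphorylation (0.28), Eif2b2 (0.26) and Impact (0.19). Eif2b3 lost its call without any single library other than WT 2 (0.31 to 0.41), and Ppp1r15a without WT 3 (0.28), WWv 1 (0.27) or WWv 3 (0.25).

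Of 27 other ATF4-linked genes of amino acid transport, synthesis and folate use 4 rose and 3 fell (median 0.10). The carriers split. Slc38a2, the amino acid-regulated carrier SNAT2, stood at 841, 513, 742, 831 and 646 CPM in WT 1 to 5 and at 489, 518, 505, 462 and 543 CPM in WWv 1 to 5, with WT 2 inside the WWv range and the other WT libraries above it (−0.51 ± 0.12, adjusted p = 0.0120). Slc1a5, the glutamine carrier ASCT2, fell as well (−0.48 ± 0.12, adjusted p = 0.0121), and so did, at a low level, Gldc of the glycine cleavage system (−0.98 ± 0.22, adjusted p = 0.00867). Slc25a32, the mitochondrial folate carrier, rose (0.41 ± 0.10, adjusted p = 0.0108), and so did, named after their values were seen, Got1 (0.36), Mthfd1 (0.34, a call lost without any single library other than WT 1, WT 2, WWv 1 and WWv 5 (0.29 to 0.34)) and the cationic carrier Slc7a1 (0.24). Adjusting for the cell cycle score ended the calls of Slc38a2 (−0.22, adjusted p = 0.347), Slc1a5 (−0.15, adjusted p = 0.379) and Gldc (−0.63, adjusted p = 0.175). Of the 20 cytosolic aminoacyl-tRNA synthetases, a classic ATF4 target group, 1 rose, Nars (0.20 ± 0.06, adjusted p = 0.0376), and 0 fell (median 0.10). Without WT 2, 10 of the 20 rose and 0 fell, in a fit that called 46.2% of all tested genes. The call of Nars was lost without any single library other than WT 2 and WWv 5 (0.16 to 0.22).

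The list of 23 further stress-induced ATF4 and CHOP targets had the most calls, 7 higher and 6 lower (56.5%), in both directions (median −0.09). Lower were Cebpb, counted above as well, Nfil3, a leucine zipper repressor (−0.90 ± 0.11, adjusted p = 0.000566), and Stc2, a secreted glycoprotein induced by ER stress (−0.79 ± 0.13, adjusted p = 0.00185). Higher was Pmaip1, the death-promoting BH3 protein NOXA (0.64 ± 0.11, adjusted p = 0.00213). Nfil3 stood at 47.3, 31.2, 43.4, 43.7 and 42.3 CPM in WT 1 to 5 and at 23.3, 18.8, 21.9, 22.2 and 25.2 CPM in WWv 1 to 5, with no overlap between the groups. These 4 calls held with each library left out and under the other 8 alternatives, as did 2 of the other 9, Atg12 (0.39) and Rcan1 (0.38), named like the next after their values were seen. The calls of Ddit4 (−0.48) and Map1lc3b (−0.29) were each lost on removal of any of 8 libraries, for both genes all but WT 2 and WWv 5. That of Tnfrsf10b (0.33) was lost without WT 4 (0.28), WWv 1 (0.29), WWv 2 (0.32) or WWv 3 (0.32), and that of Jdp2 (0.25) without WT 3 (0.23). Those of Gdf15 (0.33), Bbc3 (−0.41) and Sqstm1 (0.28) held with each library left out.

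WT 2 moved these counts too. Without it, with 46.2% of all tested genes called, 12 higher and 3 lower of the other folding genes, 8 higher and 6 lower of the degradation genes, 6 higher and 1 lower of the entry and glycosylation genes, 9 higher and 3 lower of the regulators, 11 higher and 9 lower of the amino acid genes and 8 higher and 9 lower of the further targets passed. Several of the wider calls ended under other settings. Adjusting for the cell cycle score, which overlaps with genotype as given above, also ended those of Ppic, Os9, Edem2, Ube2g2, Ubxn4, Nploc4, Sec63, Ssr1, Srp9, Creb3l3, Eif2b2, Eif2b3, Slc7a1, Mthfd1, Got1, Nars, Ddit4, Gdf15, Bbc3, Tnfrsf10b, Map1lc3b and Sqstm1. Scaling by library size alone ended those of Ppic, Calu, Ubxn4, Nploc4, Sec63, Ssr1, Srp9, Eif2b2, Eif2b3, Ppp1r15a, Impact, Slc7a1, Mthfd1, Nars, Tnfrsf10b and Jdp2, all of them rises. Without the low-count filter the calls of Edem2, Ubxn4, Sec63, Srp9, Eif2b3 and Nars were lost, with the filter of 1 CPM in 5 libraries those of Ubxn4, Eif2b3 and Nars, in limma-voom those of Creb3l3, Ddit4 and Map1lc3b, and with RLE factors that of Eif2b3.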

How the data were processed

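The authors deposited raw read counts per gene, in whole numbers, for 54446 Ensembl mouse IDs in 10 libraries (5 WT, 5 WWv). Per the submitters' processing notes bcl2fastq 2.17, Trim Galore 0.4.3 and STAR 2.5.2a were used on mm10. The counter, strandedness and gene annotation were not stated in the sources read. Genes sharing exon bases with another gene, as 10 members do, are therefore uncertain.

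IDs without their version were matched to GENCODE M21 (GRCm38, the assembly mm10 names): 54409 matched, and the other 37 held 0.0026% of counts. Ddit3 has 2 IDs, of which the one with counts was used. Coordinates are 1-based. All genes past filterByExpr (minimum count 10) were fitted together with edgeR's quasi-likelihood test (edgeR 4.0.16 under R 4.3.3), with TMM scaling and group as the only term, two-sided, with Benjamini-Hochberg adjustment over 15181 genes and calls at 0.05. SE is the absolute log2 fold change over the square root of F, and 95% intervals use the fit's degrees of freedom. CPM uses the TMM factors, and log2 CPM a prior count of 2. On counts simulated for WWv against WT over 15067 genes, 59.7% of 1.5-fold, 100% of 2-fold and 100% of 4-fold changes were recovered, with 8 false of 181 calls. Every simulated gene had the same spread between libraries, the common biological coefficient of variation of 0.161. Between libraries of a group, log2 CPM correlated at 0.968 to 0.994 and no 2 columns were identical.

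Alternatives were RLE factors, library size only, no low-count filter, 1 CPM in 5 libraries, limma-voom (limma 3.58.1), DESeq2 1.42.0, a replicate block, the mean log2 CPM of 39 cell cycle genes as a covariate, and each library left out. All members are named. From each wider list the rule named up to 4 called genes with the largest change, and others are marked where they appear; 1 gene that the rule named is not reported here. Members and lists were chosen with earlier results of these data known. Protein sequences were not used here.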

Additional observations from a re-analysis of the deposited data

Results flagged for a closer look

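In 4 of 64 tests (32 genes in each of 2 groups of 5 libraries) a single library lay farther from its nearest neighbour, relative to the group's range, than Dixon's 95% criterion allows. Chance alone gives about 1 in 20. WT 2 was the lowest of WT for Xbp1, the IRE1-spliced factor gene, at 84.3 CPM, where the remaining 4 held 109 to 118, the library pattern seen for many chaperone genes. WT 5 was the highest of WT for Asns at 129 CPM (99.4 to 107.5 in the others) and for Mthfd2 at 74.7 CPM (55.9 to 61.2 in the others). WWv 5 was the lowest of WWv for Psat1 at 87.3 CPM, where the others held 108.5 to 115. Asns, Mthfd2 and Psat1, put together only after their values were seen, belong to the 7 amino acid and folate genes. The flagged value was high in WT 5 and low in WWv 5, and a link between the 3 was not tested.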

How the results depend on the processing

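Of 576 pairs of a member and an alternative (32 genes, 18 alternatives each), 481 kept their direction and their side of the threshold, 35 lost a call, 18 gained one and 42 changed sign, the last in 16 members. Where no value shows the cause, the cause was not tested. Scaling by library size alone gave 983 higher and 3599 lower genes (21.5% of calls higher, against 45.4%), with 2 members higher and 6 lower (Ern1, Xbp1, Calr, Pdia3, Shmt2 and Aldh1l2). Without the low-count filter 2 members were higher and 0 lower, with 12.1% of 29503 tested genes called. In limma-voom, with 27.4% of all tested genes called, 0 members were lower, with 4 higher as by edgeR, where Xbp1 was the 1 lower. Adjusting for the cell cycle score gave 1472 called genes, 836 higher and 636 lower, with 7 members higher and 0 lower. The labels do not state that the replicate numbers pair the libraries. Correlations of same-numbered deviations were −0.09 to 0.31, with only number 5 matching itself best, which does not settle whether they do. With the replicate block 3 members were higher and 0 lower, Canx and Xbp1 losing their calls, and 24.0% of all tested genes were called. Of the other genes named, the block ended the calls of Ppic, Calu, Ubxn4, Sec63, Srp9, Creb3l3, Eif2b3, Nars and Ddit4. Leaving out 1 library at a time gave 3013 to 7127 called genes (19.5% to 46.2% of tested genes), 1286 to 3507 higher and 1721 to 3620 lower, the most without WT 2 in each case and the fewest higher without WWv 4. That left 2 to 5 members higher, with 5 without WT 2 and without WWv 1, and 0 to 4 lower, with 4 without WT 2.

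Estimates that changed sign were the following, as log2 fold changes. Under scaling by library size alone Eif2ak3 (−0.0060), Atf4 (−0.066), Dnajb11 (−0.062) and Sdf2l1 (−0.030). With the filter of 1 CPM in 5 libraries Atf4 (−0.0044) and Dnajb11 (−0.0018). After adjusting for the cell cycle score Hspa5 (0.058), Hsp90b1 (0.022), Creld2 (0.029), Calr (0.025), Pdia4 (0.019), Herpud1 (0.40), Asns (0.059), Phgdh (−0.0030), Aldh1l2 (0.0037), Trib3 (0.41) and Sesn2 (0.16). With RLE factors Psat1 (9.2e-05). In limma-voom Psat1 (0.020). In DESeq2 Psat1 (9.3e-05). With the replicate block Psat1 (0.020). With each library left out in turn, these crossed 0: Eif2ak3 (−0.0016 to 0.12), Atf4 (−0.021 to 0.042), Hspa5 (−0.067 to 0.021), Hsp90b1 (−0.065 to 0.00055), Dnajb11 (−0.0071 to 0.054), Sdf2l1 (−0.061 to 0.11), Creld2 (−0.051 to 0.041), Herpud1 (−0.14 to 0.043), Asns (−0.076 to 0.021), Psat1 (−0.082 to 0.14) and Sesn2 (−0.051 to 0.020). With 5 libraries a group, simulated 1.5-fold changes were recovered in 59.7% of cases. That simulation gave every gene the same spread between libraries, a biological coefficient of variation of 0.161. It changed 67 genes by 1.5-fold, 67 by 2-fold and 66 by 4-fold among 15067, where the data had 28.2% of tested genes called. With fewer changed genes the adjustment is stricter than in the data. The SE of the members ran from 0.04 to 0.22 with a median of 0.08. The recovered 59.7% therefore does not describe each member. Smaller changes, and 1.5-fold changes in the members with the largest SE, can be missed.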
